A study of Mus musculus with 2 samples.

Results

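The integrin and laminin genes of cells sorted from the mouse knee joint surface were followed across cell classes and across a labelling chase. The set comprised 32 of the 32286 features in the count matrices and was chosen by gene symbol. It held 13 integrin alpha chains (each Itga symbol with a number, and Itgav), 8 integrin beta chains (Itgb with a number) and 11 laminin chains, of which 5 were alpha (Lama), 3 beta (Lamb) and 3 gamma (Lamc). The similarly named Itgb1bp1 and Itgbl1, which are not integrin chains, were left out.

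Integrins are cell surface receptors made of an alpha and a beta chain, and they tie the cytoskeleton to the extracellular matrix. Itgb1 codes for the beta chain shared by most of them, and the alpha chain sets the ligand: collagen for the products of Itga1, Itga2, Itga10 and Itga11, laminin for those of Itga3, Itga6 and Itga7, and fibronectin and related proteins for those of Itga5, Itga8 and Itgav. Laminins are cross-shaped proteins of an alpha, a beta and a gamma chain that assemble into the sheet of a basement membrane under endothelium and around muscle, fat and nerve. Articular cartilage has no blood vessels, and its chondrocytes are surrounded by a pericellular matrix that shares some components with basement membranes.

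The cells came from knee joint cartilage of Procr-CreER;tdTomato mice. In these animals the Procr gene drives a recombinase that works once tamoxifen is given, and cells so marked, with their progeny, keep the red tdTomato protein. Tamoxifen was given at 4 weeks of age. The pulse library was made 2 days later and the trace library 4 weeks later, each from 3 pooled mice and each the only library of its group, with the same genotype and the same sort (tdTomato+, and negative for CD45, Ter119, CD31 and the dead-cell dye DAPI). Periosteum is also mentioned in the protocol, and barcodes do not tell the mice apart. With 1 library in a group no difference was tested across animals, and every interval given is an exact 95% interval that covers counting error only.

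The pulse library held 6863 barcodes and the trace library 10423, with 23306063 and 40284041 unique molecular identifiers (UMIs, each standing for a captured transcript). Cells with at least 500 genes and at most 10% mitochondrial UMIs were kept, 6533 in pulse and 9247 in trace, with a median of 2837 and 3645 UMIs per cell. After filtering, 15 barcode sequences occurred in both libraries. The X-linked RNA Xist had 3 pulse and 14149 trace UMIs, and the Y-linked Ddx3y had 4246 and 13, so the length of the chase, the age of the mice and their sex as these genes show it cannot be told apart. Transcripts associated with ribosomal RNA took 0.901% of UMIs in superficial-zone-like pulse cells and 8.66% in superficial-zone-like trace cells.

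Cells were assigned to 10 classes from marker genes that include no integrin and no laminin. Cells with the surface-zone genes Prg4, Cytl1, Clu and others were called superficial-zone-like and numbered 3938 in pulse (60.3% of kept cells) and 4550 in trace (49.2%). Their 10 leading genes were, in order, Hdac9, Col10a1, Rbp4, Pcdh9, AW112010, Nos2, Cytl1, Mmp3, Bmp5 and Smoc2. Only 1 of these, Cytl1, is a marker of the class, and AW112010, Nos2 and Mmp3 are inflammation-linked. The others were deeper-zone-like chondrocytes with Matn3 and Col9a1 (636 pulse and 123 trace cells), synovial lining-like fibroblasts with Clic5 (186 and 692), loose connective tissue-like fibroblasts with Pi16 and Clec3b (132 and 538), connective cells with Npy and Angptl7 (179 and 244) and endothelial-like cells with Cdh5 and Emcn (57 and 344). Osteoblast-like, mural-like, neutrophil-like and B-lineage-like cells numbered 105, 231, 260 and 180 in trace and under 50 in pulse, so their pulse levels were not used. The superficial-zone markers summed to 36874 and 71301 CPM in superficial-zone-like pulse and trace cells. In Npy and Angptl7 cells they summed to 30177.5 and 34563 CPM, with Cilp the highest. In synovial lining-like cells they summed to 33572 and 35942 CPM, mostly Prg4. The sort should have removed CD31+ and CD45+ cells, yet endothelial-like, neutrophil-like and B-lineage-like cells were present. Cells in more than 1 gate, 75 in pulse and 211 in trace, were left out, and 1271 and 1714 cells passed no gate.

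Levels are given as CPM, the UMIs of a gene summed over the cells of a class in a library divided by all UMIs of those cells and multiplied by 1e+06. The kit reads the 3' end of transcripts and UMIs were not scaled to gene length, so levels are compared between classes or libraries for 1 gene at a time, never between genes. A gene was measured in a comparison if it reached 20 CPM on at least 1 side, and it was called higher or lower at 2-fold. RNA released from broken cells can give droplets some background. Prg4, a superficial-zone and synovial gene, stood at 26590.3 CPM in superficial-zone-like trace cells and at 3741 CPM in neutrophil-like ones. The part of free RNA in the latter level was not tested.

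Every one of the 32 genes had at least 1 UMI, and 28 reached 20 CPM in at least 1 of the 16 combinations of class and library with 50 or more cells. Itga5, Itgav and Itgb1 did so in all 16. The 4 that never did were Itga2b, the platelet integrin alpha chain, at most 9.93 CPM, and the laminin chains Lama1, at most 4.15, Lama3, at most 14.3, and Lamc3, at most 4.54 CPM. Superficial-zone-like cells had 10 members at 20 CPM in pulse and 9 in trace, mostly receptors: 8 integrins and 2 laminins in pulse, 6 and 3 in trace. Endothelial-like cells had 14 and 15, with 5 laminins in each library, and neutrophil-like cells had 5.

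**Figure D1:**
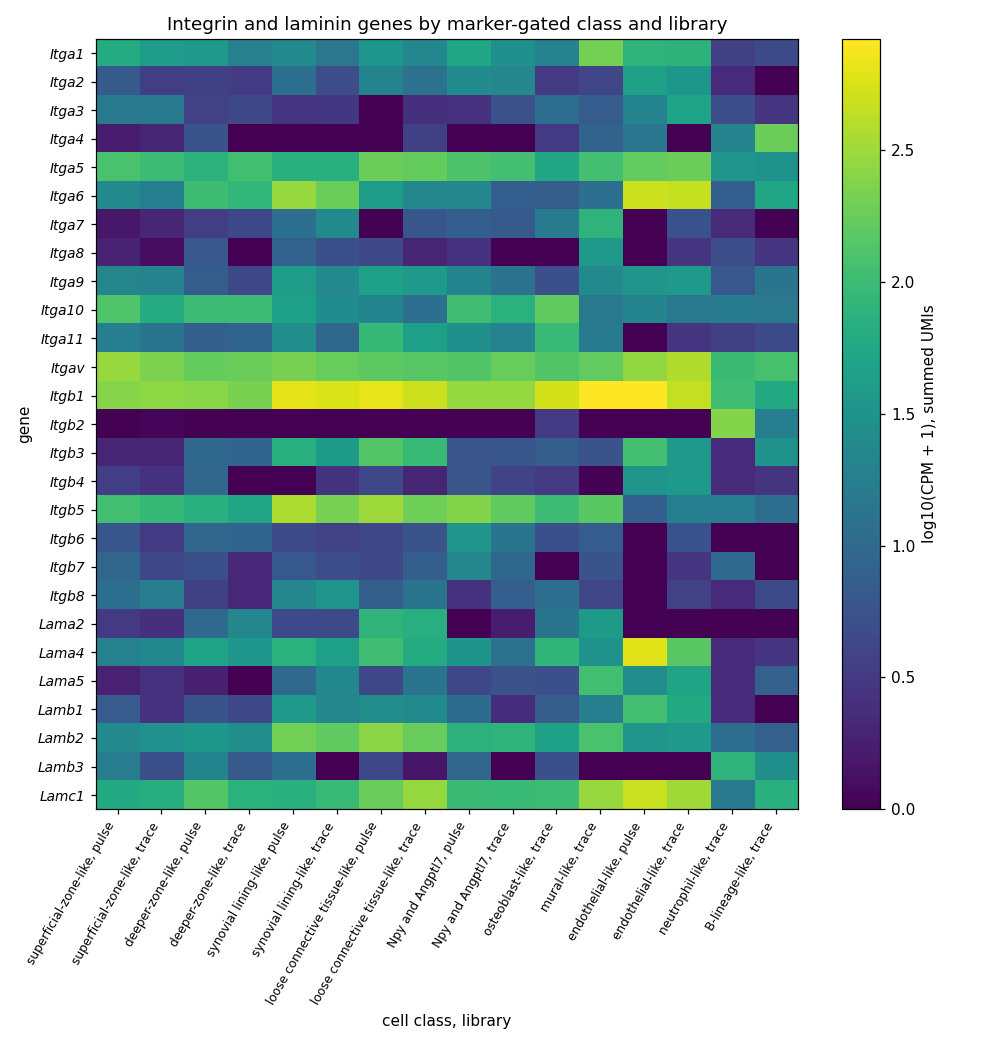
Level of 27 members that reached 20 CPM, as log10(CPM + 1) of summed UMIs, by marker-gated class and library (columns) and gene (rows). Itgb1, Itgav and Itga5 are filled across all columns, Itga10 is highest in the chondrocyte-like, Npy and Angptl7 and osteoblast-like columns, Itgb2 in the neutrophil-like column, and the laminins Lama4 and Lamc1 in the endothelial-like columns.

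Start-site upstream sequence is shown for 2 receptors that fell under 20 CPM in several classes, Itga10 and Itga11. Sequence is also shown for Itga5 and Itgb1, 2 of the 3 members that were at 20 CPM throughout. Each is the 250 bases before the RefSeq start on GRCm38.p6, 5′ to 3′ on the strand of the gene, with capitals marking the GC box (GGGCGG on either strand), a short motif common in broadly used promoters.
Itga10 (chr3:96645334-96645583, plus strand): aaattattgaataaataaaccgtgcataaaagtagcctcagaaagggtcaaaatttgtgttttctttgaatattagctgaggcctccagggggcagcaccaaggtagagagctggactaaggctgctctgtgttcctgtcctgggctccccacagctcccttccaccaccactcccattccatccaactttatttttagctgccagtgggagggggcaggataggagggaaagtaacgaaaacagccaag
Itga11 (chr9:62677605-62677854, plus strand): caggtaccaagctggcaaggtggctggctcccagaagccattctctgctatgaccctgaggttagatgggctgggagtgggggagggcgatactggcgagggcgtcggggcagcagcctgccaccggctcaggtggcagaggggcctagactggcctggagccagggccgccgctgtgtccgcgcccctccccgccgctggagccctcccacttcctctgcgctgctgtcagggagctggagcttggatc
Itga5 (chr15:103366792-103367041, minus strand): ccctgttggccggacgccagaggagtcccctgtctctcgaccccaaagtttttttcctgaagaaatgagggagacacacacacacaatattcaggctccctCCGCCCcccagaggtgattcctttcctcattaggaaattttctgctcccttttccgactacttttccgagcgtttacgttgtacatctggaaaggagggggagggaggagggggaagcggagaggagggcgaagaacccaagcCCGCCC
Itgb1 (chr8:128685404-128685653, plus strand): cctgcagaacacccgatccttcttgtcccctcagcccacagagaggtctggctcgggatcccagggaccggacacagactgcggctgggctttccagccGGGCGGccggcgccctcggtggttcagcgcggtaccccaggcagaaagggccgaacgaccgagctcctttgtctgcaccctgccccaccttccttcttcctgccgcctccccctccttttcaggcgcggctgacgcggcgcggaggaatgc
A GC box was present in the windows of Itga5 and Itgb1 and not in those of Itga10 or Itga11. Itgav, the other member at 20 CPM throughout, is not shown and was not among the members found with one. Whether the motif goes with breadth of use was not tested. Among the 21 members with a window, 7 held one, against 35.4% of 27025 genes: Itga5 and Itgb1, and Itga3, Itga4, Itgb5, Lama5 and Lamb1, of which Itga3 and Itga4 reached 20 CPM in a single class each. The core letters of SOX factors (AACAAT), the family of the cartilage regulator Sox9, were in the windows of 2 members, Itga8 and Itgb6, against 10.9% of genes, and TATAAA was in none, against 14.3%. Both strands were searched for every motif, none of these motifs contains another, and a match describes letters and not binding.

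The collagen-binding alpha chains were spread over different classes. Itga10 was highest in chondrocyte-like, osteoblast-like and Npy and Angptl7 cells, and Itga11 in loose connective tissue-like and osteoblast-like cells. Itga1 was highest in mural-like trace cells, and Itga2 in endothelial-like and Npy and Angptl7 cells. Itga10, whose product is the main collagen II receptor alpha chain of chondrocytes, stood at 130.4 (124 to 137) CPM in superficial-zone-like pulse cells and 63.0 (59.6 to 66.4) CPM in superficial-zone-like trace cells. In deeper-zone-like cells it was at 99.2 and 101 CPM, and in Npy and Angptl7 cells at 105 and 72.3 CPM. Its highest level in trace was 159.6 (126 to 199.8) CPM in osteoblast-like cells, 2.54 (1.98 to 3.20) times that of superficial-zone-like cells. Mural-like, endothelial-like, neutrophil-like and B-lineage-like trace cells held 13.6, 14.3, 15.5 and 13.9 CPM, with overlapping intervals. The 10.6 CPM of loose connective tissue-like trace cells were no higher, and the part of free RNA in these levels was not tested. Synovial lining-like cells held 43.1 (27.6 to 64.1) and 25.3 (20.4 to 31.1) CPM, between those levels and the chondrocyte-like ones.

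Itga1, the collagen receptor chain of muscle and vessel walls, was highest in mural-like trace cells, at 203 (170.1 to 240.4) CPM. Superficial-zone-like cells held 62.4 CPM in pulse and 39.0 in trace, and synovial lining-like cells 23.3 and 13.2. Itga11, a fibroblast and bone-surface collagen receptor chain, stood at 94.5 (68.9 to 126) CPM in osteoblast-like trace cells and at 89.4 and 44.1 in loose connective tissue-like cells, against 16.7 and 12.8 in superficial-zone-like cells. Synovial lining-like cells held 26.9 (15.1 to 44.4) CPM of it in pulse and 8.72 (5.93 to 12.4) in trace. Both intervals overlap those of superficial-zone-like cells, 14.6 to 19.1 in pulse and 11.3 to 14.4 in trace. Itga10 and Itga11 thus shared the osteoblast-like cells but parted in the loose connective tissue-like cells, where in trace Itga11 was 3.46 (2.68 to 4.42) times the superficial-zone-like level and Itga10 was 0.169 (0.104 to 0.260) times. Itga2, a collagen and laminin receptor chain, was at 45.7 and 33.2 CPM in endothelial-like cells and at 24.6 and 21.5 in Npy and Angptl7 cells, against 5.70 and 2.44 in superficial-zone-like cells.

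The laminin-binding chains followed other cells. Itga6 stood at 496 (391 to 620.4) and 467 (428 to 509) CPM in endothelial-like cells and at 293 (249 to 341) and 185 (171 to 199.8) CPM in synovial lining-like cells. Deeper-zone-like cells held 102 and 85.0 CPM, and superficial-zone-like cells 23.8 and 17.3, so the classes kept this order in both libraries without overlap of their intervals. Within a library the deeper-zone-like level was 4.27 (3.70 to 4.94) times the superficial-zone-like one in pulse and 4.92 (3.79 to 6.32) times in trace. Its beta partner in hemidesmosomes, Itgb4, reached 20 CPM in endothelial-like cells alone, with 32.6 CPM from 5 UMIs in pulse and 36.8 CPM in trace. Itga7, the laminin receptor chain of muscle, was at 78.8 (58.8 to 103) CPM in mural-like trace cells and at 23.3 (18.6 to 28.9) CPM in synovial lining-like trace cells, where pulse held 10.8 CPM from 6 UMIs. Itga7 overlaps exons of Mettl7b on the other strand. Exon overlap with a neighbour also occurs for Itga1, Itga4, Itga8, Itga10, Itgav, Itgb4, Lama2, Lama3 and Lamc3. For Itga1 and Itga10 that neighbour lies on the same strand, and the part of these overlaps in the levels was not tested. Itga3 was at 48.4 CPM in endothelial-like trace cells and at 14.2 and 14.3 CPM in superficial-zone-like cells, with at most 10.5 CPM in the other classes.

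Among receptors for fibronectin, vitronectin and osteopontin, Itga5 and Itgav reached 20 CPM in every class. Itga5, the fibronectin receptor alpha chain, ranged in trace from 29.6 CPM in B-lineage-like cells to 185 CPM in endothelial-like cells. The B-lineage-like level rested on 17 UMIs, with an interval of 17.3 to 47.4 CPM that spans 20 CPM. Neutrophil-like trace cells held 32.4 (20.9 to 47.8) CPM, and the part of free RNA in these levels was not tested. Superficial-zone-like cells held 121 in pulse and 99.5 in trace. Itgav stood at 292 and 220.5 CPM in superficial-zone-like cells and ranged in trace from 98.4 CPM in neutrophil-like cells to 377 CPM in endothelial-like cells. The beta chains that pair with Itgav separated the classes. Itgb5 was at 365 (316 to 418) and 208 (193 to 224) CPM in synovial lining-like cells and at 311 and 189 CPM in loose connective tissue-like cells. Superficial-zone-like cells held 108 and 88.9 CPM of it, and endothelial-like cells 6.52 CPM from 1 UMI in pulse and a level under 20 CPM in trace.

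Itgb3, the beta chain of the vitronectin receptor, was low in chondrocyte-like cells and in several other classes. It was higher in synovial lining-like, loose connective tissue-like and endothelial-like cells. Npy and Angptl7 cells held 4.92 and 5.01 CPM of Itgb3. Osteoblast-like, mural-like and neutrophil-like trace cells held 6.30, 4.54 and 1.29 CPM. Itgb3 stood at 1.02 (0.541 to 1.74) and 1.03 (0.647 to 1.56) CPM in superficial-zone-like cells, from 13 and 22 UMIs. In deeper-zone-like cells it was at 8.50 and 7.83 CPM. Loose connective tissue-like cells held 136 (97.4 to 184) and 93.3 (80.3 to 108) CPM, synovial lining-like cells 68.2 and 38.5, endothelial-like cells 111 and 35.9, and B-lineage-like trace cells 29.6. Itgb8, which with Itgav can activate latent TGF-beta, was at 21.5 and 32.4 CPM in synovial lining-like cells and at 10.6 and 15.8 in superficial-zone-like cells. Itgb6, an epithelial partner of Itgav with the same known role, reached 20 CPM only in Npy and Angptl7 pulse cells, with 32.8 CPM from 20 UMIs. Itga8, a receptor chain for nephronectin and fibronectin, was at 36.4 CPM in mural-like trace cells and at most 7.18 CPM in any other class.

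The leucocyte chains Itgb2 and Itga4 were highest in neutrophil-like and B-lineage-like cells, which were present despite the CD45 gate. Itgb2, the beta chain of leucocyte integrins, had 185 UMIs and 239.5 (206 to 277) CPM in neutrophil-like trace cells, 10 UMIs in B-lineage-like cells, and 0 and 2 UMIs in superficial-zone-like pulse and trace cells. Itga4, whose product binds VCAM-1 on vessel walls, was at 181 (148 to 219.5) CPM in B-lineage-like cells and 19.4 CPM in neutrophil-like cells, against 0.703 and 0.985 in superficial-zone-like cells. Its mucosal partner Itgb7 reached 20 CPM only in Npy and Angptl7 pulse cells, from 13 UMIs. Neutrophil-like trace cells held 9.06 CPM of Itgb7, and B-lineage-like trace cells 0 UMIs. Itga9, a tenascin receptor chain related to Itga4, was low in deeper-zone-like cells, at 6.33 and 3.36 CPM, the latter from 3 UMIs. Osteoblast-like and neutrophil-like trace cells held 4.20 and 5.18 CPM of Itga9, with intervals that overlap the deeper-zone-like one. Superficial-zone-like cells held 20.2 and 18.8 CPM, and loose connective tissue-like cells 46.3 and 36.5. Itgb1, the common partner, ranged in trace from 59.2 CPM in B-lineage-like cells over 265 in superficial-zone-like cells to 815 in mural-like cells.

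After each cell was thinned to 2000 UMIs and shallower cells were left out, Itga10 was detected in 22.2% (20.7% to 23.7%) of superficial-zone-like pulse cells and 11.3% (10.3% to 12.3%) of trace cells. Without thinning the shares were 31.4% and 21.9%, with median depths of 2946 and 4224 UMIs. In neutrophil-like trace cells the thinned share was 1.36% (0.165% to 4.83%) at a median of 2249 UMIs, and it was 22.7% (13.8% to 33.8%) in osteoblast-like cells. Itga6 was detected in 38.1% (29.8% to 46.8%) and 28.1% (24.6% to 31.7%) of synovial lining-like cells and 4.36% (3.67% to 5.13%) and 2.99% (2.49% to 3.57%) of superficial-zone-like cells. Any collagen-binding alpha chain was found in 33.7% (32.1% to 35.4%) of superficial-zone-like pulse cells and 19.9% (18.7% to 21.2%) of trace cells. For any integrin beta chain the shares were 50.7% (49.0% to 52.5%) and 50.3% (48.7% to 51.8%), against 88.1% (81.3% to 93.0%) and 79.6% (76.3% to 82.7%) in synovial lining-like cells.

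**Figure D2:**
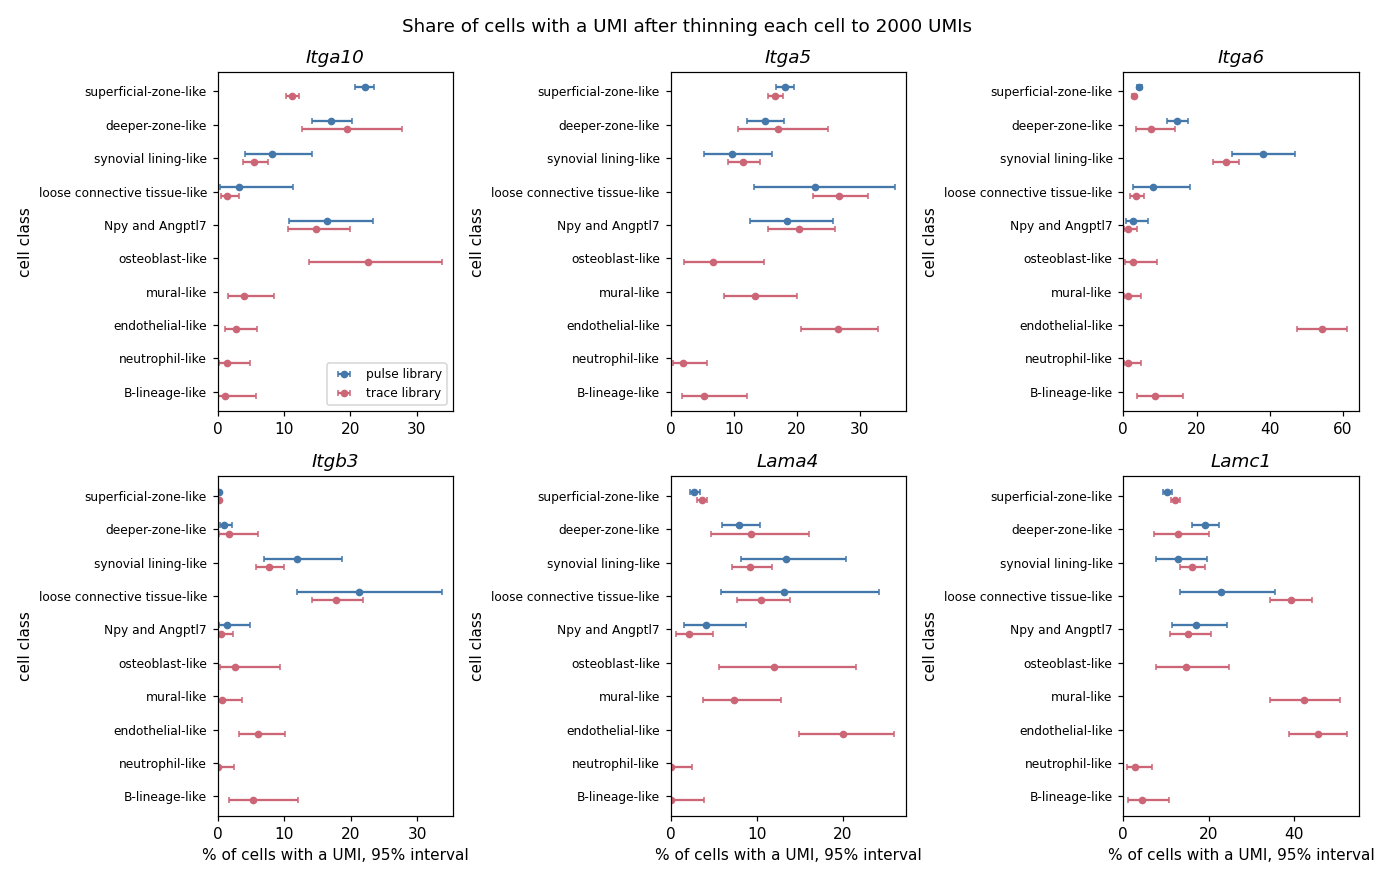
Share of cells with at least 1 UMI of 6 members after thinning each cell to 2000 UMIs, by class (rows) and library (colour), with exact 95% binomial intervals for classes with 50 or more cells left. The pulse and trace intervals of Itga10 in superficial-zone-like cells are apart. Itgb3 is near 0 in chondrocyte-like classes, and also in Npy and Angptl7, mural-like and neutrophil-like cells. It is highest in loose connective tissue-like cells.

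An alpha chain and Itgb1 were detected in the same thinned superficial-zone-like cells about as often as the product of their shares gives. Itga10 and Itgb1 met in 245 pulse cells, where the product gives 252, and in 173 trace cells, where it gives 175. Itga5 and Itgb1 met in 211 and 247 cells, with products of 206 and 257. In synovial lining-like trace cells Itga6 and Itgb1 met in 121 cells, with a product of 114. In superficial-zone-like cells each chain was missed in most cells at this depth, so these counts do not show which receptors a cell carries.

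Most laminin chains were lower in superficial-zone-like cells than in endothelial-like, mural-like or fibroblast-like cells. Lama4, the alpha chain of endothelial and mesenchymal laminins, was at 619.6 (501 to 757) CPM in endothelial-like pulse cells and 148 (126 to 172) CPM in endothelial-like trace cells. Loose connective tissue-like cells held 106 and 61.4 CPM, osteoblast-like trace cells 79.8, and superficial-zone-like cells 18.4 and 22.0. Lama2, the alpha chain of muscle basement membrane, was at 79.4 (50.9 to 118) and 68.5 (57.4 to 81.0) CPM in loose connective tissue-like cells and at 37.9 in mural-like cells, with at most 2.11 in superficial-zone-like cells and 0 UMIs in endothelial-like cells of both libraries. Lama5, the alpha chain of mature vessel and epithelial laminins, was at 109 (85.3 to 137) CPM in mural-like trace cells, 26.1 and 49.3 in endothelial-like cells and 0.859 and 1.64 in superficial-zone-like cells. Endothelial-like cells therefore held Lama4 and Lama5 at 20 CPM or more in both libraries, and loose connective tissue-like cells Lama4 and Lama2. The endothelial-like pulse level of Lama5 rested on 4 UMIs, with an interval of 7.11 to 66.8 CPM that spans 20 CPM.

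Among beta chains, Lamb2 was at 261 (207 to 326) and 174 (156 to 194) CPM in loose connective tissue-like cells and 199 and 161 in synovial lining-like cells, while endothelial-like cells held 32.6 and 35.9. Lamb1 took another order, with 111 and 59.2 CPM in endothelial-like cells, 26.5 and 24.3 in loose connective tissue-like cells and 5.94 and 1.60 in superficial-zone-like cells. Lamc1, the gamma chain of most laminins, was at 476 and 318 CPM in endothelial-like cells, 294 in mural-like cells, 179 and 289 in loose connective tissue-like cells and 59.0 and 65.0 in superficial-zone-like cells. Any laminin chain was detected in 20.6% (19.2% to 22.1%) of thinned superficial-zone-like pulse cells and 21.7% (20.4% to 23.0%) of trace cells, against 66.2% (61.4% to 70.7%) of loose connective tissue-like and 69.8% (61.7% to 77.0%) of mural-like trace cells.

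Lamb3, an epithelial beta chain, had its highest level in neutrophil-like trace cells, at 77.7 CPM from 60 UMIs, followed by B-lineage-like cells at 27.9 (15.9 to 45.3) CPM. Superficial-zone-like cells held 15.7 CPM in pulse and 4.22 in trace. On GRCm38 its annotated span encloses G0s2 and Hsd11b1 on the opposite strand, with no exon in common. These neighbours stood at 1128 and 486 CPM in neutrophil-like cells, at 1.74 and 6.97 CPM in B-lineage-like cells, and at 21.7 and 0.469 CPM in superficial-zone-like pulse cells. Whether intron or opposite-strand reads entered the Lamb3 count is not given in the sources used here, and their part in its level was not tested. Lama3, the alpha chain that joins Lamb3 in epithelial laminin, had 0 UMIs in neutrophil-like and B-lineage-like cells.

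Each class was then set against superficial-zone-like cells of the same library. Genes under 20 CPM in superficial-zone-like cells entered only where the other class was high, so the counts that follow describe the sets and support nothing further. In synovial lining-like pulse cells 15 members were measured, of which 8 were at least 2-fold higher (19.7% of all features measured there) and 2 lower (17.5%), and in trace 10 of 16 were higher (14.4%) and 2 lower (15.1%). Itga6, Itgb1, Itgb3, Itgb5, Itgb8, Lama4, Lamb1 and Lamb2 were higher and Itga1 and Itga10 lower in both libraries. In loose connective tissue-like cells 15 members were measured in each library, with 10 higher in pulse (22.0%) and 8 in trace (15.0%). Itga11, Itgb3, Itgb5, Lama2, Lama4, Lamb1, Lamb2 and Lamc1 were higher in both, and Itga10 was lower in both (all features lower: 16.6% and 12.9%).

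In endothelial-like cells 9 of 16 measured members were higher in pulse (26.9% of all features) and 9 of 17 in trace (22.0%), with Itga2, Itga6, Itgb3, Itgb4, Lama4, Lama5, Lamb1 and Lamc1 in both. Itga10 and Itgb5 were lower in both libraries, where 19.4% and 15.3% of all features were lower. In mural-like trace cells 8 of 14 were higher (21.3%), namely Itga1, Itga7, Itga8, Itgb1, Lama2, Lama5, Lamb2 and Lamc1, and Itga10 was lower (14.0%). In osteoblast-like trace cells 4 of 10 were higher (13.8%), namely Itga10, Itga11, Itgb1 and Lama4, and Itga1 was lower (19.0%). Deeper-zone-like pulse cells had 4 of 12 higher (17.3%) and the trace cells 2 of 11 (9.96%), with Itga6 in both, and 1 was lower in each, Itga9 in pulse (13.9%) and Itga1 in trace (12.1%). In Npy and Angptl7 cells 5 of 15 were higher in pulse (10.9%) and 2 of 10 in trace (7.27%), with Itga2 and Lamb2 in both, and Itgav was lower in pulse (9.20%) and none in trace (7.71%). In neutrophil-like trace cells 9 of 11 members were lower (34.9%), and Itgb2 and Lamb3 were higher (23.0%). In B-lineage-like trace cells 7 of 13 were lower (19.5%) and 4 higher (34.1%), namely Itga4, Itga6, Itgb3 and Lamb3.

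The comparison of trace with pulse asks which of these genes differed between cells taken shortly after labelling and cells that had kept the label through the chase. In superficial-zone-like cells 11 of the 32 members were measured and 21 were under 20 CPM in both libraries. The only call was Itga10, lower in trace at 0.483 (0.449 to 0.519) times its pulse level, an interval that spans the 2-fold limit. No member was called higher. This 1 call of 11 is near the background, since 8.80% of 6217 features were called lower and 2.24% higher. The median log2 ratio of the 11 was -0.28, against -0.23 over all measured features. Members under the floor could not be called, and their ratios lay on both sides of 1. Among them Lamb3 was at 0.269 (0.207 to 0.346) times, from 15.7 to 4.22 CPM. Lamb1 was at 0.269 (0.174 to 0.408) times, from 5.94 to 1.60 CPM. Itga10 is thus the only call but not the lowest ratio. With totals that left out mitochondrial and ribosomal RNA-associated transcripts, or with the libraries scaled by the median ratio over features, the log2 ratio of Itga10 moved from -1.05 to -0.93 and -0.82, which is under 2-fold.

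**Figure D3:**
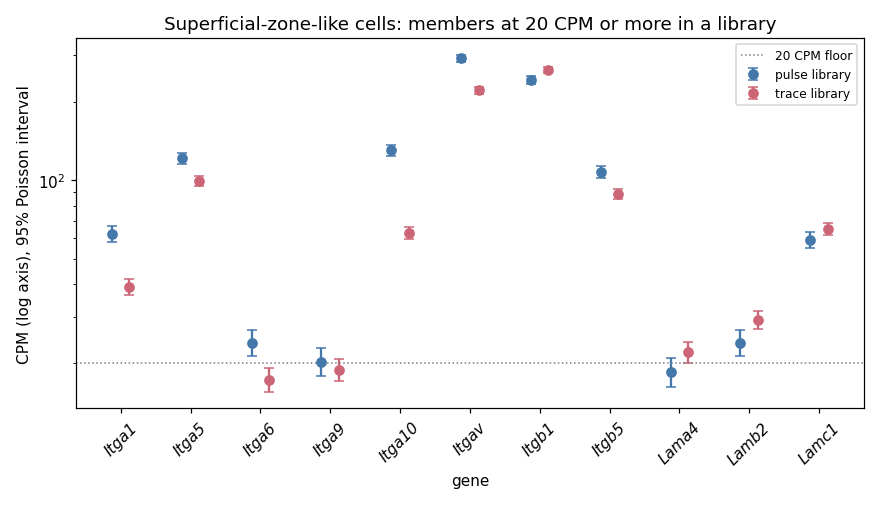
Level of the 11 members measured in superficial-zone-like cells (CPM on a log axis) in the pulse and trace libraries, with exact 95% Poisson intervals and the 20 CPM floor as a dotted line. Itga10 is at 130.4 CPM in pulse and 63.0 in trace, Itga1 at 62.4 and 39.0, and Itgb1, Lama4, Lamb2 and Lamc1 are slightly higher in trace.

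The other collagen-binding chain at this level, Itga1, was at 0.625 (0.566 to 0.689) times its pulse level. Itgav was at 0.754 (0.722 to 0.787), Itga6 at 0.725 (0.621 to 0.846), Itga5 at 0.820 (0.768 to 0.876) and Itgb5 at 0.823 (0.767 to 0.883) times. On the other side of 1 were Itgb1 at 1.09 (1.04 to 1.14), Lamc1 at 1.10 (1.01 to 1.21), Lama4 at 1.19 (1.02 to 1.40) and Lamb2 at 1.23 (1.07 to 1.41) times. The interval of Itga9 spanned 1, at 0.933 (0.796 to 1.10). Apart from Itga10 none of these passed the call, and the median of all features was itself below 0 on the log2 scale. Scaling by the median ratio raised each value by the same step of 0.23 on the log2 scale. It left Itga10 at -0.82, Itga1 at -0.45, Itga6 at -0.24, Itgav at -0.18, Itga5 at -0.06 and Itgb5 at -0.05, with Itgb1 at 0.36 and the laminins between 0.37 and 0.52, and it turned Itga9 from -0.10 to 0.13.

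Superficial-zone-like cells came mostly from 2 joint clusters, cluster 1 led by Col10a1 (2382 pulse and 1831 trace cells) and cluster 2 led by Msmp and Mgp (1376 and 2336 cells), so their mix differed between libraries. The clusters were drawn without the 32 members. Several members differed between these clusters in both libraries. Lama4 in cluster 1 was at 0.320 (0.242 to 0.422) times its cluster 2 level in pulse and at 0.575 (0.470 to 0.703) times in trace, and Lamb2 was at 0.538 (0.419 to 0.691) and 0.525 (0.435 to 0.633) times. Itga1 was at 0.684 (0.591 to 0.791) and 0.693 (0.599 to 0.801) times. Itga5 was higher in cluster 1, by 1.32 (1.18 to 1.49) and 1.42 (1.29 to 1.55) times. Itga10 was lower in trace within each cluster, at 0.417 (0.376 to 0.462) times in cluster 1 and 0.550 (0.487 to 0.622) times in cluster 2. Itga1 was at 0.608 (0.525 to 0.702) and 0.599 (0.518 to 0.693) times in these clusters. Lama4 in cluster 1 was under 20 CPM in both libraries, at 10.8 (8.65 to 13.3) CPM in pulse and 16.2 (13.8 to 19.0) CPM in trace, and in cluster 2 it was at 0.838 (0.679 to 1.04) times, an interval that spans 1. Its trace level was thus higher in cluster 1 and not shown to differ in cluster 2.

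**Figure D4:**
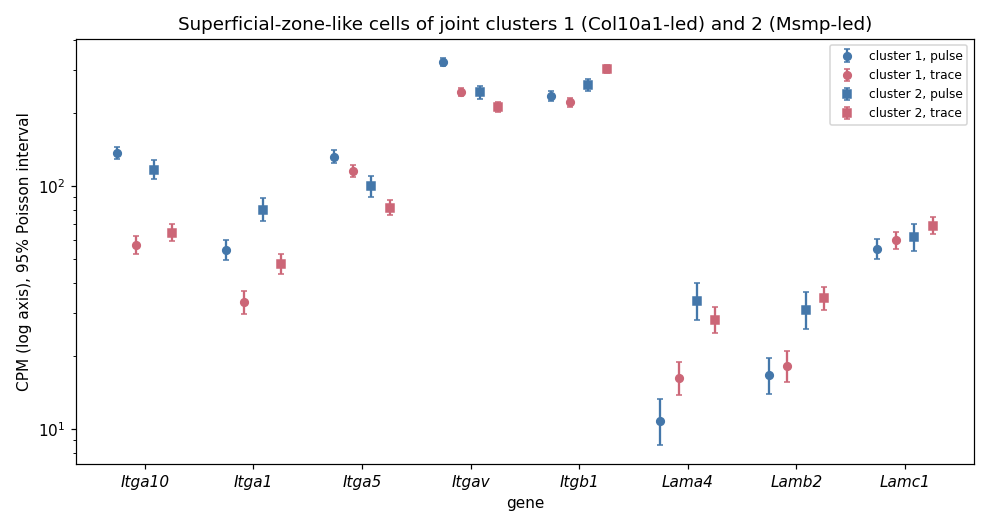
Level of 8 members (CPM on a log axis, exact 95% Poisson intervals) in superficial-zone-like cells of joint cluster 1 (circles) and joint cluster 2 (squares) in pulse (blue) and trace (red). Itga10 is lower in trace in both clusters, and Lama4 and Lamb2 are lower in cluster 1 than in cluster 2 in both libraries.

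In deeper-zone-like cells 12 members were measured. Itga10, called lower in superficial-zone-like trace cells, was at 1.01 (0.802 to 1.27) times its pulse level there. Lama2 was called higher, at 2.39 (1.32 to 4.17) times, where 3.61% of all features were called higher and 18.2% lower. Its level was 8.90 CPM in pulse, from 45 UMIs. In trace it was 21.3 (12.8 to 33.2) CPM, from 19 UMIs, an interval that spans the 20 CPM floor. Lamc1 was at 0.518 (0.395 to 0.670) times. The loose connective tissue markers, whose class held the highest Lama2 level, summed to 6.92 CPM in pulse and 17.9 CPM in trace in these cells, with 7 and 5 of 8 markers detected and Pi16 at 0 in both. Their part in the Lama2 ratio was not tested. Whether the Itga10 ratios of the 2 chondrocyte-like classes differ was not tested, since each rests on 1 library per group.

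In synovial lining-like cells 17 members were measured, and 13 had ratios below 1, with a median log2 ratio of -0.66 against -0.29 over all features. Itga11 was called lower, at 0.324 (0.170 to 0.645) times (background 11.6%), and Itga7 and Lama5 higher, at 2.17 (0.955 to 6.07) and 2.44 (1.00 to 7.74) times (background 2.16%). The pulse levels of these 2 genes rested on 6 and 5 UMIs. With cells grouped by joint clusters in place of gates, the log2 ratio of Lama5 was 0.28 in place of 1.29, and that of Itga7 was 0.87 in place of 1.12. Both genes were highest in mural-like cells. Of the 7 mural gate markers, 2 were detected in synovial lining-like pulse cells and 5 in trace cells, and their sums of 1304 and 758 CPM were almost wholly Rgs5, at 1302 and 752 CPM. Notch3, Myh11, Kcnj8, Abcc9 and Higd1b were at 0 in pulse, and Abcc9 and Higd1b also in trace.

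Loose connective tissue-like cells had 14 measured members, 13 with a ratio below 1 and 1 above it. Itga11 was called lower, at 0.494 (0.317 to 0.791) times (background 14.6%), and it was under 2-fold with cells of at least 1000 genes and under the other scalings. None was called higher (background 4.26%), and Lamc1 at 1.61 (1.22 to 2.18) times was the gene above 1. In Npy and Angptl7 cells 14 were measured and 4 called lower (background 13.7%): Itga6 at 0.302 (0.114 to 0.764), Itgb6 at 0.371 (0.183 to 0.746), Itgb7 at 0.403 (0.168 to 0.958) and Lama4 at 0.368 (0.177 to 0.755) times. None was called higher (background 3.57%). Each of these 4 rested on 13 to 20 pulse UMIs. Endothelial gate markers, of the class highest in Itga6 and Lama4, summed to 54.1 CPM in Npy and Angptl7 pulse cells and 10.7 CPM in trace cells, with 3 and 5 of 10 detected and Egfl7, Kdr, Plvap, Esam and Cldn5 at 0 in both, and their part was not tested. With joint clusters, which merge these cells with the loose connective tissue-like ones, the log2 ratios were -0.50 for Itga6, -0.73 for Itgb7 and -0.25 for Lama4.

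In endothelial-like cells 15 members were measured from 57 pulse and 344 trace cells. Lama4 was called lower, at 0.239 (0.184 to 0.311) times, as was Itgb3, at 0.323 (0.179 to 0.608) times with an interval that spans the 2-fold limit, beside a background of 16.2%. Itga3 was called higher, at 2.47 (0.803 to 12.4) times from 3 pulse UMIs, with an interval that spans 1 and a background of 8.91%, and with joint clusters its log2 ratio was 0.82, under 2-fold. Itgb1 was at 0.539 (0.443 to 0.660) times and Lamc1 at 0.669 (0.518 to 0.872), while Itga6 was at 0.942 (0.740 to 1.22) times. The interval of Lama4 lies below that of its laminin partner Lamc1 and meets that of Lamb1, which was at 0.534 (0.309 to 0.970) times. The median log2 ratio of the 15 was -0.02, against -0.18 over all features. Of the 8 loose connective tissue gate markers, 2 were detected in endothelial-like pulse cells and 5 in trace cells, and the sums of 554 and 282 CPM were mostly Cd34, a gene that endothelium itself carries.

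**Figure D5:**
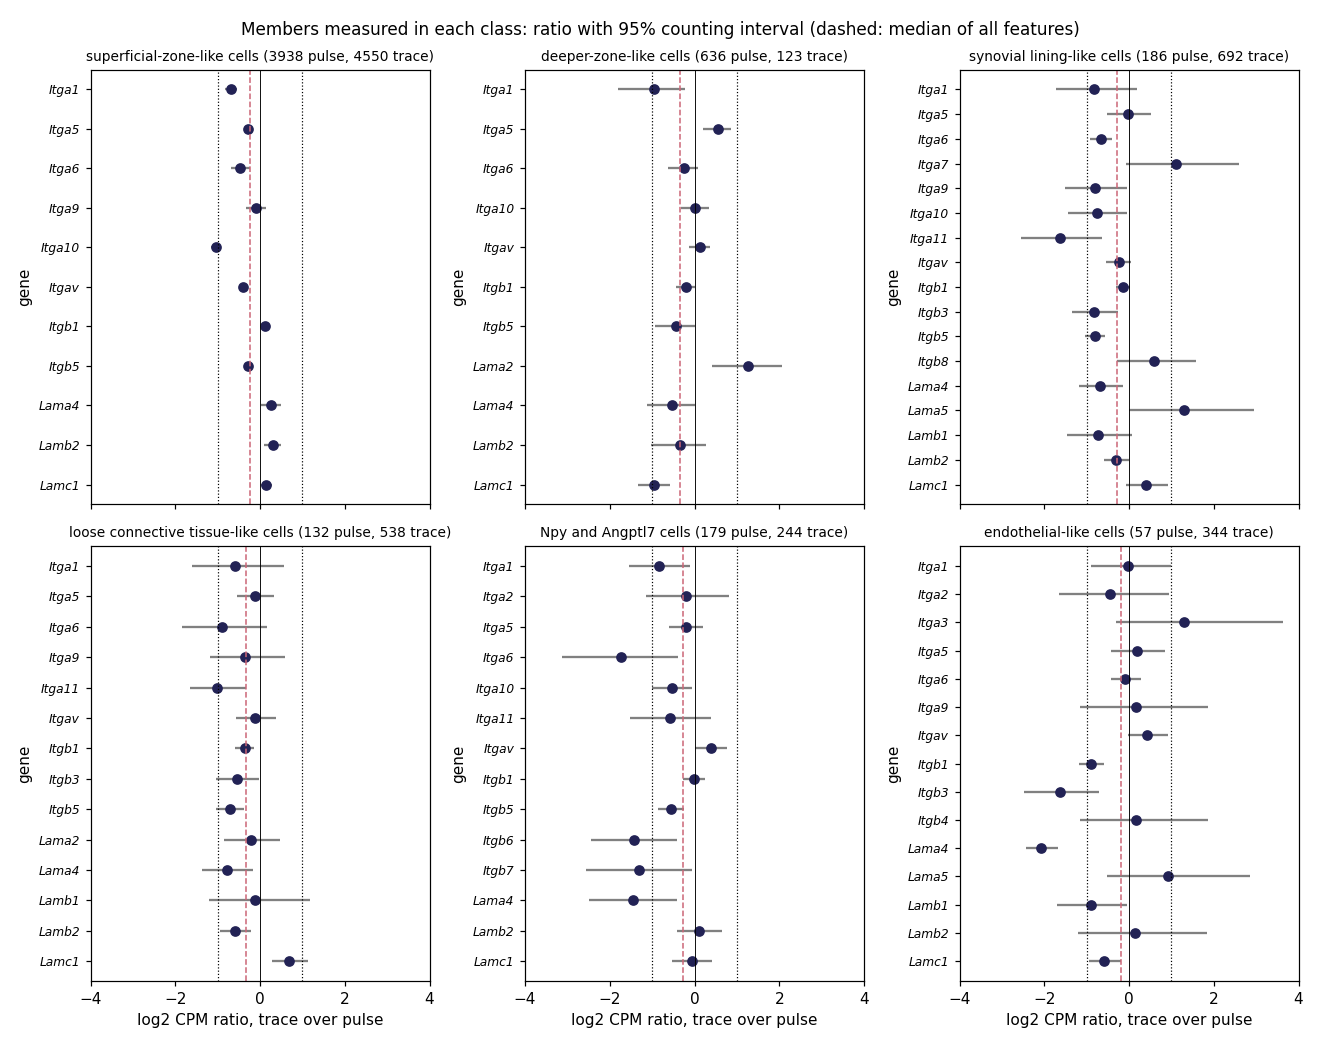
Log2 ratio of trace over pulse, 82 ratios in all, for members measured in each of the 6 classes with 50 or more cells in both libraries, with exact 95% counting intervals (grey bars). Dotted lines mark 2-fold and the dashed line the median of all measured features. Most points lie left of 0, as does the median of all features, and Lama4 in endothelial-like cells is at -2.07.

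Among 12 other basement membrane genes, 4 were measured in superficial-zone-like cells and 1 was called (all features: 8.80% lower), Col4a2, a chain of the sheet-forming collagen IV, which was lower from 37.2 to 12.8 CPM, 0.344-fold (0.296 to 0.400). Hspg2, the proteoglycan perlecan of basement membranes and cartilage pericellular matrix, went from 314 to 585 CPM, 1.86-fold (1.80 to 1.93). The linker Nid2 went from 19.8 to 31.1 CPM, 1.57-fold (1.36 to 1.82), and Col15a1 went from 198 to 198 CPM, 1.00-fold (0.954 to 1.05). The list's median log2 ratio was 0.33, against -0.23 for all features. Across classes Hspg2 was highest in deeper-zone-like cells in both libraries, at 811 and 629.8 CPM. Col4a1, the other main collagen IV chain, was highest in endothelial-like pulse cells, at 1076 CPM, and in mural-like trace cells, at 969.5 CPM, and stood at 8.28 and 9.99 CPM in superficial-zone-like cells. Of the basement membrane genes, superficial-zone-like cells were thus at 20 CPM or more for Hspg2 and Col15a1 in both libraries, for Col4a2 in pulse and for Nid2 in trace.

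Of 17 adaptors that link integrins to actin, 12 were measured in superficial-zone-like cells and none was called (all features: 2.24% higher and 8.80% lower), with a median log2 ratio of -0.44. Vinculin (Vcl) went from 154 to 91.3 CPM, 0.591-fold (0.555 to 0.630), parvin (Parva) from 118 to 73.6 CPM, 0.625-fold (0.582 to 0.671), talin 2 (Tln2) from 44.3 to 29.8 CPM, 0.674-fold (0.601 to 0.756) and filamin A (Flna) from 41.4 to 61.6 CPM, 1.49-fold (1.34 to 1.65). Of 17 integrin ligands other than laminins, 11 were measured, 1 was called higher and 1 lower, beside the same 2.24% and 8.80% of all features. Col1a1, a chain of collagen I, went from 68.2 to 384 CPM, 5.63-fold (5.25 to 6.05). The same gene was at 34424 CPM in osteoblast-like trace cells and at 499.8 and 22.6 CPM in neutrophil-like and B-lineage-like trace cells, and the part of free RNA in its superficial-zone-like level was not tested. Thbs1, the matricellular protein thrombospondin, went from 945 to 469.6 CPM, 0.497-fold (0.484 to 0.510). Col2a1, the cartilage collagen that Itga10 receptors bind, went from 4907 to 2799 CPM, 0.570-fold (0.564 to 0.577), and the milk-fat globule protein Mfge8, an Itgav ligand, from 546 to 286 CPM, 0.523-fold (0.505 to 0.541).

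Of 13 other matrix receptors and integrin partners, 10 were measured in superficial-zone-like cells and none was called, beside these shares of all features. The proteoglycan Sdc3 went from 51.2 to 101 CPM, 1.97-fold (1.81 to 2.16), the tetraspanin Cd81 from 302 to 157 CPM, 0.518-fold (0.494 to 0.542), the collagen receptor kinase Ddr2 from 498 to 336 CPM, 0.674-fold (0.652 to 0.698) and the hyaluronan receptor Cd44 from 352 to 244 CPM, 0.691-fold (0.664 to 0.720). Among the nuclear lamins, which share only their name with laminins, Lmna was measured and went from 213 to 165 CPM, 0.775-fold (0.737 to 0.815).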

How the data were processed

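Single-cell RNA was measured in 2 libraries of sorted mouse knee joint cells, 1 per group, made from 3 pooled mice each. The deposited values are raw UMI counts per gene and cell barcode, which the authors obtained with Cell Ranger 7.1.0, per the file headers. The submitters' processing notes name Cell Ranger 3.0.1, with STAR, HTSeq, Seurat and DESeq2, and the build mm10. Whether intron reads were counted is not given in the sources used here.

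Cells with at least 500 genes and at most 10% mitochondrial UMIs were kept. A cell entered a class with at least 3 markers of its list that were detected in at most 25% of kept cells in each library. Lists of at most 4 such markers needed 2 of them and 3 UMIs, and superficial-zone-like cells needed 6 of 9 markers and no other gate. These thresholds were set after marker levels were seen. The members and lists were chosen with earlier results of these data known. Cells in more than 1 gate were left out as possible doublets, since Scrublet called 0 cells in either library and so had not worked.

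UMIs were summed per class and library and scaled to CPM. Intervals are exact at 95% (Poisson for levels, conditional binomial for ratios, Clopper-Pearson for shares) and cover counting error only, and no p-value was computed. A change was called at 2-fold with 20 CPM on at least 1 side, in classes with 50 cells in each library. For shares, cells were thinned to 2000 UMIs. Joint Leiden clusters (resolution 0.5, 2000 variable genes, 30 principal components, 20 neighbours, members left out) gave an alternative to the gates. Values in every class are given for members that reached 20 CPM in some class, where they carry a comparison, and the others by range. From each further list up to 4 genes with the largest superficial-zone-like ratio are named. The ratio calculation was tested on simulated counts, where genes with no change were also called in the class with the fewest cells, so calls in endothelial-like cells are to be read with their intervals. Python 3.11.15, scanpy 1.11.5, scipy 1.17.1 and leidenalg 0.10.2 were used.

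Promoter windows came from RefSeq on GRCm38.p6, matched by symbol for 21 of the 32 members. The values of 1 member are not reported here, and it is left out of the figures but not of the counts. Alternatives covered the gene minimum, Scrublet scores, gates, clusters, totals, scaling, floor, fold and thinning depth.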

Additional observations from a re-analysis of the deposited data

Results flagged for a closer look

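Lama4 went in opposite directions in 2 classes. In superficial-zone-like cells its trace level was 1.19 times the pulse level (1.02 to 1.40), from 18.4 to 22.0 CPM, and in endothelial-like cells it was 0.239 times (0.184 to 0.311), from 619.6 to 148 CPM. Both counting intervals leave out 1, and the difference between the classes was not tested, since each library is the only one of its group. The endothelial-like pulse level came from 57 cells, and within superficial-zone-like cells the level in cluster 1 was 10.8 (8.65 to 13.3) CPM in pulse and 16.2 (13.8 to 19.0) CPM in trace, while the ratio in cluster 2 was 0.838 (0.679 to 1.04). The other compared classes also had Lama4 ratios below 1. The ratio was 0.693 (0.458 to 1.01) in deeper-zone-like cells, an interval that spans 1, and 0.627 (0.441 to 0.910) in synovial lining-like cells. Loose connective tissue-like cells had 0.579 (0.390 to 0.884), and Npy and Angptl7 cells 0.368 (0.177 to 0.755). The pair of superficial-zone-like and endothelial-like cells was picked out because these 2 classes moved in opposite directions.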

How the results depend on the processing

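No paired analysis was possible because each group has 1 library, and for the same reason no library could be left out. In superficial-zone-like cells 1 member was lower in trace at 2-fold. The count was 0 with totals lacking mitochondrial and ribosomal RNA-associated transcripts, 0 with median ratio scaling, 2 with a 10 CPM floor, 10 with no floor and 2 at 1.5-fold. In the other classes 4 pairs of member and class were higher. This became 1 with at least 1000 genes per cell, 1 with a stricter gate, 1 with joint clusters, 11 with no floor and 7 at 1.5-fold. The 9 lower pairs became 14 with a 10 CPM floor, 41 with no floor, 26 at 1.5-fold and 15 with a looser gate, an alternative chosen after seeing the data, as were the values within clusters. With at least 1000 genes, the stricter gate or joint clusters, 5 classes in place of 6 could be compared, which by construction removes pairs. A pair also leaves the count when neither side reaches 20 CPM. Among calls in the classes still compared, higher or lower, 11 of 11 ratios stayed at 2-fold with the stricter gate. With at least 1000 genes 9 of 11 did, and with joint clusters 7 of 13 did. Of the 83 ratios, 82 stayed within their counting interval without the highest Scrublet scores, and 65 did under median ratio scaling, where none that was called changed direction. Counts of members at 20 CPM and of members higher than in superficial-zone-like cells stayed within 1.5 times. Depth limits the endothelial-like and loose connective tissue-like pulse levels most, with 57 and 132 cells.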
